A study of Mus musculus with 3 samples.

Results

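The FGF receptor genes Fgfr1, Fgfr2, Fgfr3 and Fgfr4 and 6 genes of the feedback and output arm of ERK signalling (Spry1, Spry2, Spry4, Dusp6, Etv4 and Etv5) were followed in mouse embryonic stem (ES) cells and mouse embryonic fibroblasts (MEF). Members were all gene probes whose name in the scanner files equals 1 of these symbols. That gave 10 of 27962 gene names and 22 of 41174 probes, each 60 bases long. Each of 3 two-colour whole mouse genome arrays carried Cy3-labelled RNA of an ES cell replicate and Cy5-labelled MEF RNA, to ask how the ES cells differ in expression from MEF. The Cy5 sample is named differently in the study's design text; the sample labels, which all say MEF, were followed. The ES cells were untreated and grown with defined fetal bovine serum and leukemia inhibitory factor in Knockout DMEM. The MEF grew in DMEM with heat-inactivated fetal bovine serum. Neither strain, genotype, age nor passage is given, and the labels do not say whether the ES cells shared their dishes with feeder cells. The labels do not tell separate cultures from repeat hybridisations. The p-values therefore cover only the spread from array to array, possibly a technical one. MEF is a single control here, whose own spread does not enter the tests. Dyes were not swapped, so any dye bias of a probe remains in its ratio and in differences between probes.

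FGF receptors are tyrosine kinases of the cell surface that bind fibroblast growth factors together with heparan sulfate chains. The activated receptor passes its signal through the docking protein FRS2 and the adaptor GRB2 to RAS, RAF, MEK and ERK. ERK activity raises the transcription of ETS factors such as Etv4 and Etv5 and of its own inhibitors, among them the Sprouty proteins and the ERK phosphatase Dusp6. In mouse ES cells FGF and ERK signalling is known for promoting the exit from self-renewal toward differentiation. In fibroblasts it is known for supporting proliferation.

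The receptors were read by 13 probes, and those of Fgfr2, Fgfr3 and Fgfr4 did not give a common ratio within a gene. For Fgfr2 and Fgfr3, each log2 difference of at least 1 between probes involved a probe near or at background in the ES cells. Sequences of the probes compared are shown first, in the orientation of the files. Capitals mark a base at which overlapping probes of a gene differ. The Fgfr1 pair shares 39 positions of the gene, of which 38 are identical, and differs by A57G, counted from the first base of A_51_P109469. The Fgfr3 pair shares 37 positions, of which 36 are identical, and differs by T28C, counted from the first base of A_51_P322906. For this pair the 30 bases around the differing position are shown, bases 24 to 53 of A_51_P322906 and bases 1 to 30 of A_52_P506516. Of A_51_P237613 and A_51_P408100 the first 30 bases are shown. Both A_52_P686383 and A_52_P144363 were designed on the record of Fgfr4 splice variant 17b, per the description in the files, whereas A_51_P408100 was designed on the main Fgfr4 record.
Fgfr1 A_51_P109469: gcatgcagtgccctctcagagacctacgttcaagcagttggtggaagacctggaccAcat
Fgfr1 A_52_P668810: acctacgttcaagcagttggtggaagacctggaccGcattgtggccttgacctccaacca
Fgfr2 A_52_P158800: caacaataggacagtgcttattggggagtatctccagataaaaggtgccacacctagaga
Fgfr3 A_51_P237613: tagagtaatctcctgactggccagggccag
Fgfr3 A_51_P322906: ggcaTggcagttttgtttgtactggacctg
Fgfr3 A_52_P506516: ggcaCggcagttttgtttgtactggacctg
Fgfr4 A_52_P686383: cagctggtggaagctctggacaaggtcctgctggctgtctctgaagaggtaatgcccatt
Fgfr4 A_52_P144363: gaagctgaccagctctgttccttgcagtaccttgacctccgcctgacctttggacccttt
Fgfr4 A_51_P408100: ccctccattgcttgttccagcatcttggtg
The GC content of the 13 receptor probes ran from 36.7% to 55%. Probe positions are given below in mouse build mm7, as the files state them. No annotation of that build was used, so exon, intron and UTR placement was not determined.

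All ratios below are log2 ES cells over MEF, so a negative value is a lower level in the ES cells. Called probes have an adjusted p under 0.05 in limma together with a log2 ratio that reaches 1 in either direction. As 95.4% of the 29500 tested probes met the p threshold, calls rest largely on the fold minimum. Log2 ratios correlated across probes at r = 0.998 between each pair of arrays, and the median SD of a probe over the 3 arrays was 0.030. All 8 ES cell marker genes checked were called higher in the ES cells and all 8 fibroblast markers lower. All 6 macrophage markers, among them Csf1r and Adgre1, were also called lower in the ES cells, at a median log2 ratio of -5.06. Summed over the brightest probe of each gene, their signal was 384280 to 417123 in the MEF channel and 8567 to 8940 in the ES cell channel. Most of the MEF sum came from a probe of Lyz2, at a mean of 326178. The brightest probes of the other macrophage genes had MEF means of 3485 to 25900. No marker gene of this list or of the fibroblast list was at background in either channel. Fibroblast markers summed to 42461 to 44463 in the ES cell channel, against 1765820 to 1781070 in the MEF channel. The part of other cell types in the ratios below was not tested. In such bulk RNA, fewer cells of a type and less RNA per cell cannot be told apart.

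All 22 member probes passed the filter of being well above background in a channel on all 3 arrays. Etv4, Etv5 and 1 probe each of Spry4, Fgfr3 and Fgfr4 were higher in the ES cells. Spry1, all probes of Fgfr1, 2 probes of Fgfr2 and 1 probe each of Fgfr3 and Fgfr4 were lower. That Fgfr3 probe, A_51_P237613, was at background in the ES cells on all 3 arrays and passed the filter only through MEF. Dusp6 and Spry2 were not called. This makes 6 probes called higher, against 19.9% of all tested probes called higher, and 9 called lower, against 21.1% of all called lower. The other 7 were not called, although 21 of the 22 had an adjusted p under 0.05 in limma. At least 1 probe was called in 8 of the 10 genes. Such a count rises with the number of probes of a gene, and the share over all genes was not computed. The median log2 ratio of the member probes was 0.04, beside -0.02 over all tested probes.

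**Figure D1:**
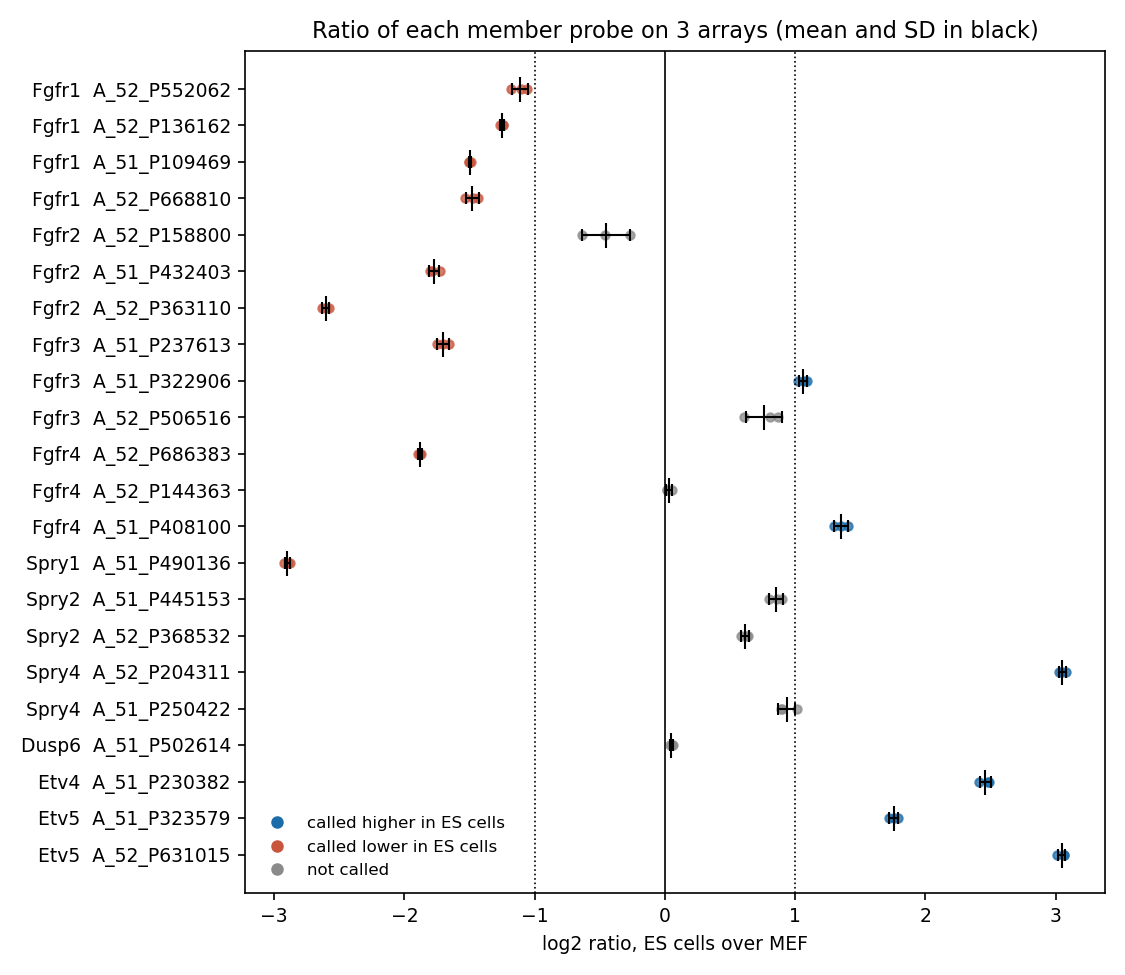
Log2 ratio of ES cells over MEF (horizontal axis) for each of the 22 member probes, with 1 point per array and the mean and SD over 3 arrays in black; dotted lines stand at -1 and 1. The probes of Fgfr1 lie together below -1, whereas those of Fgfr3 and Fgfr4 lie on both sides of 0.

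Fgfr1, the receptor best known from mesenchymal cells, was lower in the ES cells on every probe and every array. The probe A_52_P552062 (chr8:24288465-24288524, plus strand) lies farthest upstream and gave ES cell signals of 212, 189 and 185 on arrays 1, 2 and 3, against MEF signals of 389, 388 and 381. Downstream of it, A_52_P136162 (chr8:24326167-24326226) gave 253, 233 and 214 in the ES cells against 557, 498 and 495 in MEF. The ES cell values lay below the MEF values on all 3 arrays for both probes, without overlap. Their log2 ratios were -1.12 (SD 0.062, n = 3 arrays, limma adjusted p = 6.05e-06) and -1.25 (SD 0.013, adjusted p = 5.30e-07). With arrays centred on their median in place of loess, the former became -0.99 and missed the fold minimum.

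The other Fgfr1 probes overlap each other and carry the differing base shown above. A_51_P109469 (chr8:24330044-24330103) was spotted 10 times on each array, with mean ES cell signals of 591, 581 and 573 and MEF signals of 1493, 1481 and 1512. A_52_P668810 (chr8:24330065-24330124) gave 725, 697 and 664 against 1745, 1729 and 1778. MEF was above the ES cells on every array for both. The log2 ratio was -1.50 (SD 0.0080, adjusted p = 3.32e-07 in limma) for the former, a 2.83-fold lower level, and -1.48 (SD 0.049, adjusted p = 1.52e-06) for the latter. Within an array the 10 spots of A_51_P109469 spread with an SD of 0.026 to 0.059, which is wider than the 0.0080 between the array means. The ratios of this overlapping pair differed by -0.02 (SE 0.026, limma adjusted p = 0.492), so no difference beyond the spread between arrays was seen, although the probes differ at A57G. Across all Fgfr1 probes, the 6 pairwise differences of log2 ratios reached at most 0.38 in size, and none was called. With the scanner software's processed signals, 3 of the 6 turned sign and lay between -0.067 and 0.013.

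Fgfr2, a receptor of epithelial and mesenchymal tissues that exists in several splice forms, was also lower in the ES cells, but by amounts that depended on the probe. The probe A_52_P158800 (chr7:126407714-126407773, minus strand) lies 128693 bases upstream of the next one on the genome. Its ES cell signals were 173, 98.6 and 114, and its MEF signals 178, 139.8 and 155. The values were close on each array, the ranges of both cell types overlapped, and the ES cell channel was well above background on 1 of 3 arrays. The log2 ratio was -0.45 (SD 0.18, adjusted p = 0.00467 in limma), so the probe was not called. With the processed signals it was -1.39 (adjusted p = 0.0559), again without a call.

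The downstream Fgfr2 probes were called lower. A_51_P432403 (chr7:126279021-126279080), spotted 10 times, gave mean ES cell signals of 258, 241 and 229.7 and MEF signals of 764, 756 and 755. A_52_P363110 (chr7:126278278-126278337) gave 1118, 1072 and 1083 in the ES cells and 5984, 5872 and 5881 in MEF. MEF was higher on every array for both probes, and the cell types did not overlap. The log2 ratios were -1.77 (SD 0.038, limma adjusted p = 6.12e-07) and -2.61 (SD 0.027, adjusted p = 2.23e-07), or 3.41-fold and 6.08-fold lower levels.

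Both downstream Fgfr2 probes differed from the upstream one. The log2 ratio of A_51_P432403 minus that of A_52_P158800 was -1.46, -1.17 and -1.32 on the 3 arrays, a mean of -1.32 (SD 0.15, limma adjusted p = 2.38e-05). That of A_52_P158800 minus that of A_52_P363110 was 2.15 (SD 0.17, adjusted p = 7.25e-06). With the processed signals, these differences were -0.77 (adjusted p = 0.184) and 1.16 (adjusted p = 0.0794) and were no longer called. The upstream ratio rests on ES cell signals near background, as given above. The downstream probes differed from each other by 0.83 (SD 0.040, adjusted p = 6.14e-06), which is larger than the spread between arrays but under the fold minimum.

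Fgfr3, a receptor best known from cartilage and neural tissue, gave ratios of opposite sign. On A_51_P237613 (chr5:32798913-32798972, plus strand) the ES cell signals were 83.8, 79.0 and 77.1, over a mean local background of 47.2, and were not well above background on any array. MEF signals of 260.3, 243 and 244 were well above background on all 3. The measured log2 ratio was -1.70 (SD 0.046, adjusted p = 9.32e-07 in limma). Since the ES cell channel gives only a bound, the level was at least 2.35-fold lower in the ES cells, or at least 4.05-fold lower with the processed signals. Such a bound compares the mean of the brighter cell type with a floor for the dimmer one. On each array this floor is the dim signal itself or the weakest signal that still counted as well above background, whichever is higher.

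The overlapping Fgfr3 probes, which start 505 and 528 bases downstream, were brighter in the ES cells. A_51_P322906 (chr5:32799418-32799477) gave ES cell signals of 1956, 1869.6 and 1801 and MEF signals of 824, 797 and 806. A_52_P506516 (chr5:32799441-32799500) gave 2595, 2808 and 2553 against 1308, 1624 and 1266. The ES cells were higher on every array for both, and array 2 was the brightest of the 3 in both channels for A_52_P506516. The former had a log2 ratio of 1.06 (SD 0.034, limma adjusted p = 1.94e-06) and was called higher. The latter had 0.76 (SD 0.14, adjusted p = 0.000257) and was not called, but reached 1.01 and a call with median centring.

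Within Fgfr3, the log2 ratio of A_51_P237613 minus that of A_51_P322906 was -2.79, -2.82 and -2.68 on the 3 arrays, a mean of -2.76 (SD 0.074, limma adjusted p = 7.73e-07). Against A_52_P506516 the difference was -2.47 (SD 0.091, adjusted p = 1.26e-06). As the ES cell channel of A_51_P237613 was at background, its ratio is a bound. With the ratio put at that bound, the differences were -2.30 and -1.996, larger in size than those of 96.8% and 94.9% of all pairs of probes of a gene on the array. The overlapping probes differed by 0.30 (SD 0.15, adjusted p = 0.00777), under the fold minimum.

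Fgfr4, a receptor best known from liver and developing muscle and endoderm, ran from a probe called lower to a probe called higher. A_52_P686383 (chr13:54250254-54250313, plus strand) gave ES cell signals of 729.96, 700.5 and 647.5 and MEF signals of 2367, 2288 and 2231. A_52_P144363 (chr13:54250389-54250448) gave 579, 574 and 522 against 516, 504 and 479. MEF was the brighter on every array for the former, whereas the channels lay close together for the latter. A_51_P408100 (chr13:54251006-54251065) gave 1761, 1744 and 1815 in the ES cells and 636, 614 and 618 in MEF, so that here the ES cells were brighter on every array.

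From the upstream to the downstream end, the Fgfr4 log2 ratios were -1.88 (SD 0.014, limma adjusted p = 2.65e-07), 0.03 (SD 0.024, adjusted p = 0.138) and 1.35 (SD 0.053, adjusted p = 2.31e-06). In folds, the first probe was 3.69-fold lower and the last 2.55-fold higher in the ES cells. All 6 channel readings of each probe were well above background. The probes start within 752 bases of each other. A_51_P408100 exceeded A_52_P686383 by 3.17, 3.23 and 3.30 on the 3 arrays, a difference of 3.23 (SD 0.066, limma adjusted p = 6.27e-07) that is larger than that of 99.3% of all pairs. Differences of 1.91 (SD 0.024, adjusted p = 6.93e-07) and 1.32 (SD 0.056, adjusted p = 2.55e-06) separated the middle probe from its neighbours. The brightest probe gives Fgfr4 a log2 ratio of -1.88 and the mean over its probes -0.17, so the gene has no ratio that holds for all its probes.

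**Figure D2:**
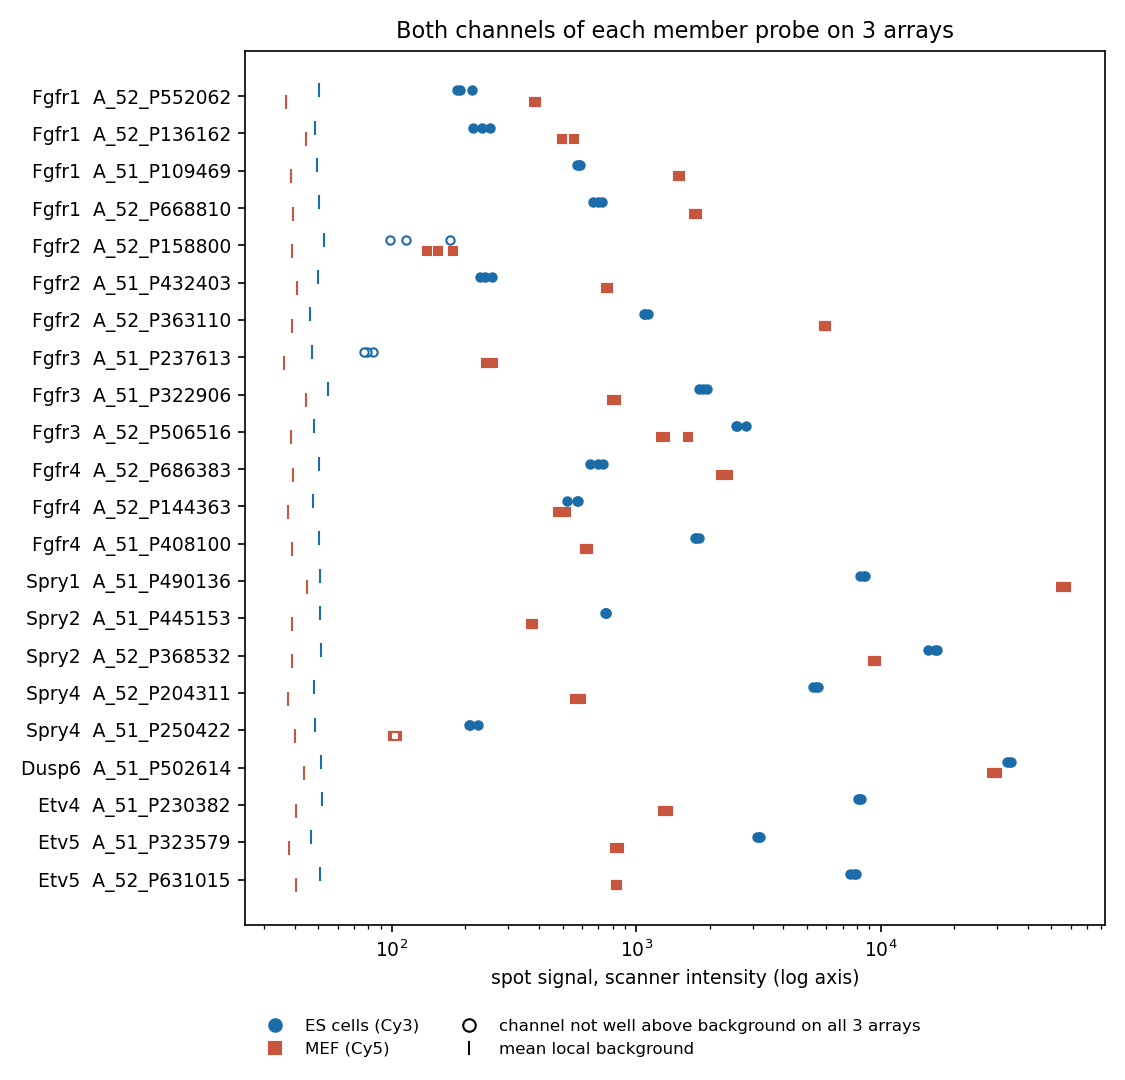
Spot signal as scanner intensity on a log axis for each of the 22 member probes, with ES cells (Cy3) as circles and MEF (Cy5) as squares, 1 symbol per array, and the mean local background as a tick. Open symbols mark a channel that was not well above background on all 3 arrays, as for Fgfr3 A_51_P237613 in the ES cells and Spry4 A_51_P250422 in MEF; signals of different probes are not comparable.

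Of the 15 pairs of probes within a receptor, 7 differed by a log2 ratio of at least 1 with an adjusted p under 0.05 in limma, beside 21% of the 13982 such pairs over all genes. They comprise 2 of 3 pairs of Fgfr2, 2 of 3 of Fgfr3, 3 of 3 of Fgfr4 and 0 of 6 of Fgfr1. The Fgfr1 pairs share their 4 probes, as do those of each other receptor, so pairs are not independent. The median size of a difference over all pairs was 0.42, and the 95th percentile was 2.01. Probes called in opposite directions occurred in 68 of 6799 genes with such pairs (1.00%), and these include Fgfr3 and Fgfr4. For Fgfr3, the probe called lower was at background in the ES cells. Where both channels of both probes had to be above background, which removes A_52_P158800 and A_51_P237613, 3 receptor pairs were called, all of Fgfr4. The bearing of transcript forms, of probe sequence and of cross-hybridisation on these differences was not tested.

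**Figure D3:**
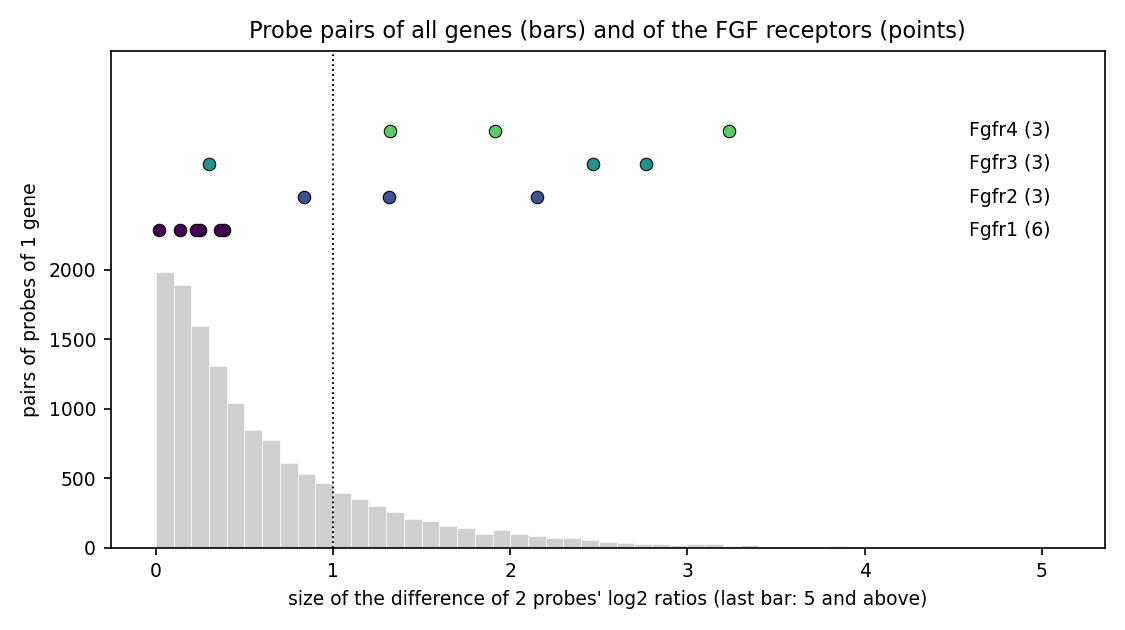
Size of the difference between the log2 ratios of probes of a gene (horizontal axis), as measured, for all 13982 pairs (bars, number of pairs) and for the 15 pairs of the FGF receptors (points above the bars, at a height that has no scale); the dotted line stands at 1. All pairs of Fgfr1 lie left of the line and all 3 of Fgfr4 right of it, up to 3.23.

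Among the Sprouty genes, which encode inhibitors of signalling from receptor tyrosine kinases to ERK, Spry1 was lower in the ES cells and Spry4 higher. Spry1 (A_51_P490136, chr3:37455053-37455112, plus strand) gave ES cell signals of 8233, 8574 and 8613 and MEF signals of 54766, 55107 and 57250. MEF was above the ES cells on every array, and no spot was saturated. The log2 ratio was -2.90 (SD 0.020, limma adjusted p = 1.94e-07), a 7.46-fold lower level, and only 3.62% of tested probes had a lower ratio.

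Spry4 was read by a pair of probes of unequal brightness. The stated genome position of A_51_P250422 covers only part of its length, so its placement is uncertain. A_52_P204311 (chr18:38962470-38962529, minus strand) gave 5565, 5289 and 5464 in the ES cells and 596, 564 and 572 in MEF. The other probe, A_51_P250422, gave 207, 225 and 209.6 against 101, 105 and 103, and its MEF channel was at background on each of the 3 arrays. The ES cells were higher on every array for both. The log2 ratio of the former was 3.05 (SD 0.027, limma adjusted p = 1.96e-07), an 8.28-fold higher level. The latter gave 0.93 (SD 0.067, adjusted p = 1.35e-05), not called, with a bound of at least 1.91-fold higher in the ES cells. With the processed signals its log2 ratio was 1.99, called, and the bound at least 3.78-fold. The difference of the Spry4 probes was -2.12 (SD 0.071, adjusted p = 1.17e-06), as measured. The smaller ratio is a lower bound, since the MEF channel of that probe was at background, so the probes may differ by less.

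Spry2 was not called on either probe. A_51_P445153 (chr14:100322370-100322429, minus strand) gave 743, 755 and 753 in the ES cells and 379, 370.2 and 379.6 in MEF. A_52_P368532 (chr14:100321854-100321913), designed on an expressed sequence tag, gave 16963, 16749 and 15622 against 9575, 9404 and 9310.2. On each array the ES cell values were the higher, without overlap. The log2 ratios of 0.85 (SD 0.051, limma adjusted p = 9.06e-06) and 0.62 (SD 0.031, adjusted p = 8.97e-06) exceeded the spread between arrays but stayed under the fold minimum. For the former, the processed signals gave 1.13 and median centring 1.03, both called.

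Dusp6, the phosphatase that inactivates ERK in the cytoplasm, was bright in both cell types and close to equal. A_51_P502614 (chr10:98828759-98828818, plus strand) gave ES cell signals of 32917, 34335.5 and 33693.5 and MEF signals of 28572, 29321.5 and 29919.7. After normalization the log2 ratios were 0.05, 0.06 and 0.04, a mean of 0.05 (SD 0.010, limma adjusted p = 0.0191), or a fold of 1.04. Under the alternatives it stayed positive and ran from 0.05 to 0.30, so a difference of 1 in either direction was not seen under any setting.

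Etv4 and Etv5, ETS transcription factors of the PEA3 family that act downstream of FGF receptors, were higher in the ES cells on all 3 probes. Etv4 (A_51_P230382, chr11:101879168-101879227, minus strand) gave 8163, 8325 and 8085 in the ES cells and 1344, 1313 and 1287 in MEF. Its log2 ratio was 2.46 (SD 0.042, limma adjusted p = 3.47e-07), a 5.51-fold higher level. No MEF reading reached the lowest ES cell reading.

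Etv5 behaved likewise on its upstream and downstream probes, with different sizes. A_51_P323579 (chr16:22033331-22033390, minus strand) gave 3127, 3183 and 3212 in the ES cells and 833, 816 and 853 in MEF. A_52_P631015 (chr16:22032301-22032360) gave 7964, 7811 and 7483 against 833, 825 and 825. ES cells were higher on every array. The log2 ratios were 1.76 (SD 0.034, limma adjusted p = 5.21e-07) and 3.04 (SD 0.030, adjusted p = 2.05e-07), 3.38-fold and 8.25-fold higher levels. They differed from each other by -1.29 (SD 0.046, adjusted p = 2.15e-06), a called difference larger than that of 86.2% of all pairs.

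The other genes of the pathway were counted from lists by role. A probe was counted if its gene name, or the RefSeq symbol of its design record, was on the list. Members were matched by gene name alone. Over all tested probes, 19.9% were called higher and 21.1% lower, which are the shares to set beside each list. The list of further feedback inhibitors also held phosphatases and receptor-binding proteins that need not inhibit ERK signalling. Of its 43 tested probes, 5 were called higher in the ES cells, 19 lower and 19 not. Its median log2 ratio was -0.60. Those higher were led by a probe of Dusp9, an ERK phosphatase, at 2.30 (SD 0.038), whose other probe gave 0.45 and was not called. They included both probes of Spred2, a Sprouty-related inhibitor, at 1.07 and 1.12. Dusp4, a nuclear ERK phosphatase, had 1 probe called at 1.32 and another at 0.26 that was not. The lowest were Flrt2, a membrane protein that can bind FGF receptors, at -3.15 and -2.45, and the phosphatase Dusp8 at -2.91. Fgfrl1, an FGF receptor relative without a kinase domain, was lower at -2.26 (SD 0.0050). Spred1 at 0.05, 0.07 and 0.21 and Il17rd, an FGF antagonist, at -0.36 and -0.17 were not called, and the third Il17rd probe was not above background.

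Among adaptors, coreceptors and heparan sulfate genes, 4 of 52 tested probes were called higher and 28 lower, at a median of -1.12. The scaffold adaptor Gab1 (2.80) and the RAS exchange factor Sos1 (1.06) were higher in the ES cells. The coreceptor syndecan Sdc4 was called in opposite directions, at 2.06 on A_52_P93467 and -2.004 on A_51_P323248. The syndecan Sdc2 (-4.04 and -2.84) and the glypican Gpc6 (-2.83 and -2.18) were lower. Frs2, the receptor's docking protein, gave -1.15, -0.95 and -0.49 on its probes, of which the first was called lower.

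For the cascade from RAS to ERK, 35 of 48 tested probes were not called, 6 were higher and 7 lower, at a median of -0.01. Rps6ka1, a kinase downstream of ERK, was higher at 1.53 on a probe, while another gave 0.54 and was not called. Pea15a, an ERK-binding protein, was lower at -2.95 and -2.58, as was the kinase Rps6ka4 at -2.23. Mapk3, which encodes an ERK kinase, was lower on both probes at -1.64 and -1.63.

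The list of ERK responsive transcription factors and targets also held factors of naive pluripotency, which need not be raised by ERK. Of its 40 tested probes, 24 were called lower and 3 higher, at a median of -1.38. All 3 higher probes were of such factors, Tfcp2l1 and Klf2. The immediate early genes Fos (-4.06, SD 0.0065), Egr2 (-3.93) and Egr1 (-2.97) were lower in the ES cells on all 3 arrays. Ier2, another immediate early gene, was lower at -3.45 on A_52_P554555 but gave 0.11, not called, on A_51_P481325. Tfcp2l1, a transcription factor of naive pluripotency, was higher at 3.92 and 1.48, the latter with MEF at background. Klf2, another such factor, was higher at 1.75 on A_51_P144264 but gave -0.86, not called, on A_52_P442031. Etv1, the third PEA3 factor, gave 0.77 (SD 0.0055, limma adjusted p = 1.54e-06) and was not called.

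The list of FGF ligands also held FGF-binding proteins, which are not ligands: Fgfbp1, called higher, and Fgfbp3, not called. Of its 18 tested probes, 6 were called higher and 7 lower, at a median of -0.55. Fgf17 (2.47), Fgf1 (1.63) and Fgf5 (1.13) were higher in the ES cells. The hormone-like Fgf21 (-4.36 and -3.84, the latter above background in the ES cells on 1 array), Fgf18 (-2.10) and Fgf7 (-1.28), a ligand made by mesenchymal cells, were lower. Fgf4 was not analysed here.

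**Figure D4:**
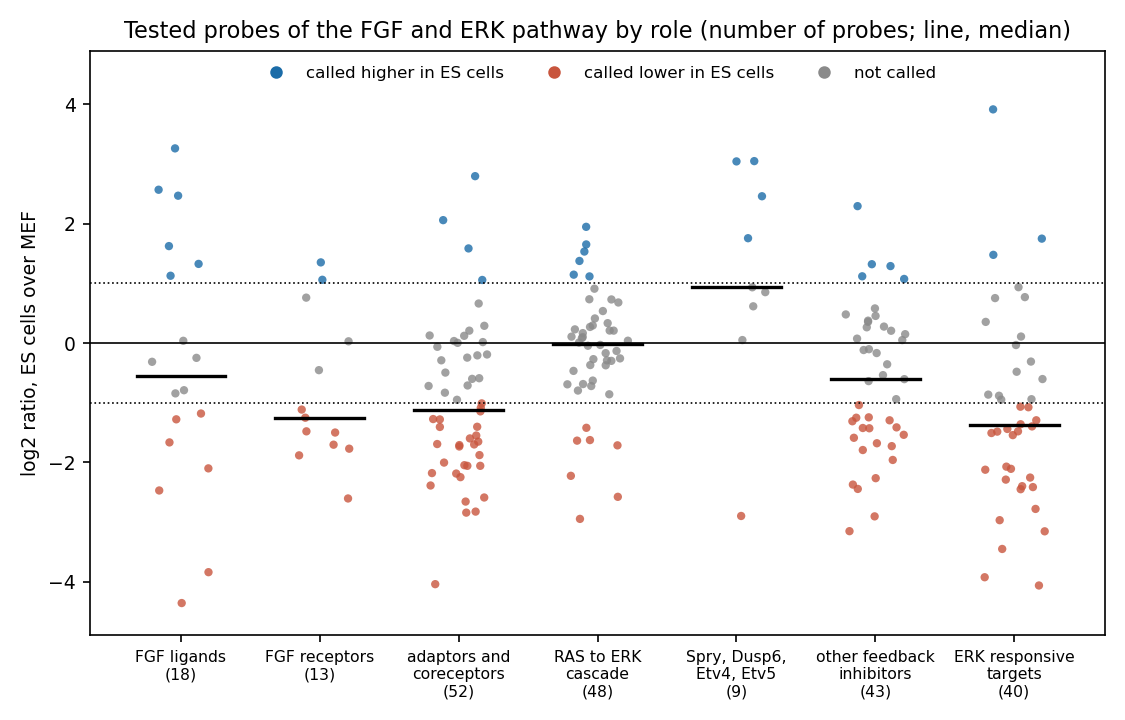
Log2 ratio of ES cells over MEF (vertical axis) of each tested probe, grouped by role from ligands to targets, with the number of probes in brackets and the median as a line; blue, red and grey points were called higher, called lower and not called. The group with the Sprouty genes, Dusp6, Etv4 and Etv5 has 9 probes, of which 4 were called higher and 1 lower, while the ERK responsive targets have a median of -1.38. The ligand group includes FGF-binding proteins, and the target group includes factors of naive pluripotency.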

How the data were processed

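The members and lists were chosen with earlier results of these data known. The deposited spot and background values are scanner intensities that Agilent Feature Extraction 9.5.3.1 extracted, per the file headers. As deposited, the log10 ratio of a spot is MEF over ES cells. The authors' deposited log2 value table matches the sign-turned ratio of the processed intensities to within 0.01 for 85.4% to 87.8% of probes (r at least 0.998). Its column medians are 0.213, 0.086 and -0.143, so it is not centred; how its other values were made is not given in the sources used here.

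Mean signals were corrected with normexp (offset 50, which shrinks ratios of dim probes) and loess within arrays in limma 3.58.1 under R 4.3.3. Control spots had weight 0, repeat spots of a probe were averaged, and 117 to 144 outlier spots an array were dropped. Probes well above background in the ES cell or the MEF channel on all 3 arrays were tested (29500 of 41174), by an intercept-only limma fit with Benjamini-Hochberg adjustment over all of them. Differences between probes of a gene were fitted likewise over 13982 pairs and their p-values adjusted over those. Median gene signals were 398 to 421 (ES cells) and 381 to 391 (MEF), over backgrounds of 45 to 56 and 38 to 41.5. The number of arrays limits precision. Both fits were tested on simulated data.

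All member probes were named, and from each other list the 3 highest and 3 lowest called probes above background in both channels, plus Spred1, Spred2, Il17rd, Fgfrl1, Dusp4, Frs2, Mapk3, Etv1 and Egr1; other probes of genes so named were added after their values were seen, and some genes that this rule takes in are not reported here. Fgfbp1 and Fgfbp3 were named outside this rule, to describe their list. Of the list names, Dusp5, Anos1, Ksr2 and Fgf4 matched no probe. The name Sef matched none either, but it is an alias of Il17rd, which was measured. Alternatives were processed signals, no background subtraction, offset 0, median centring, Aquantile, no filter or a filter on both channels, outlier spots kept, no fold minimum, limma's treat, the deposited value table, the brightest probe or the mean of probes per gene, and each array left out.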

Additional observations from a re-analysis of the deposited data

How the results depend on the processing

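No member probe ratio reversed under any alternative run. Differences between Fgfr1 probes did reverse with the processed signals or the authors' value table: A_51_P109469 minus A_52_P136162 became 0.013, A_52_P136162 minus A_52_P668810 became -0.067, and A_52_P552062 minus A_52_P668810 became -0.039 (limma adjusted p of 0.693, 0.0747 and 0.539 with the processed signals); the cause was not tested. The bounds for Fgfr3 A_51_P237613 and Spry4 A_51_P250422 became 4.05 and 3.78. With both channels above background 3 receptor pairs were called, since fewer probes are tested. With no fold minimum, 13851 probes were called higher and 14289 lower, 11 member probes higher, 61 pathway probes higher and 131 lower, and 12394 pairs, 14 of them of receptors. With the brightest probe per gene, 8413 of 19681 genes were called. Among them, 3 members and 15 pathway genes were higher and 4 and 56 lower. With the mean of probes, 3861 of 19681 genes were called higher and 4096 lower, 3 members each way, and 14 and 56 pathway genes. Median centring moved the median over all probes from -0.02 to 0.15.

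Leaving out each array in turn gave 6 member probes higher and 9 lower throughout, 7 receptor pairs, 5805 to 5910 probes higher and 6169 to 6262 lower, and 2968 to 3047 pairs. Pathway probes called were 24 to 25 higher and 85 to 86 lower, and the bounds ran from 2.15 to 2.50 and from 1.86 to 1.94. No paired analysis was possible because the 3 arrays form 1 group and each already pairs both cell types. Dim signal limits Fgfr2 A_52_P158800, whose log2 ratio ran from -1.39 to -0.36 over the alternatives, and Fgfr3 A_51_P237613, at -4.07 to -1.68.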
